A study of Mus musculus with 6 samples.

Results

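The genes described here are 40 factors of ribosome production: Myc, 5 genes of RNA polymerase I and its initiation factors, 7 genes of the small nucleolar ribonucleoproteins (snoRNPs), 3 abundant nucleolar proteins, 12 factors of the small ribosomal subunit and 12 of the large one. They were listed by name for their function in the nucleolus, and each was matched to an Ensembl identifier by its mouse symbol. All 40 were among the 20097 genes listed for each library and among the 15410 that passed a filter on low values, the least abundant at a mean of 966 normalised reads. Their RNA was measured by sequencing of poly-A RNA from bone marrow cells carrying the surface receptor c-Kit, in 3 libraries of genotype WT and 3 of genotype Runx1 KO. Strain, age, sex, how Runx1 was disrupted and in which cells, and whether the 3 libraries of a genotype came from separate animals are not given in the sources used here. The p-values therefore measure only the spread between these libraries, which may be technical.

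Ribosomes are built in the nucleolus, where RNA polymerase I copies the ribosomal DNA into a long precursor RNA. Box C/D and box H/ACA snoRNPs guide its methylation and pseudouridylation, the small subunit processome cuts and folds the part that becomes the small subunit, and a separate set of factors matures the large subunit. The transcription factor MYC, which binds DNA as a partner of MAX at the E-box, is known to raise the transcription of many of these genes, and growing blood progenitors make ribosomes at a high rate.

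Values are called normalised read counts here, a unit worked out from the values, and no count test was run on them. Every value was a whole multiple of the smallest positive value of its library, within a tolerance of 0.001, and these multiples summed to between 23297526 and 26793380 in a library. If 1 multiple is taken as 1 read, 3 reads correspond to 2.88 to 3.14 normalised reads (counting error only). Changes are differences of mean log2(value + 1), Runx1 KO minus WT, from limma, with p-values adjusted over the 15410 genes by the Benjamini-Hochberg method and a threshold of 0.05. Libraries of a group differed well beyond counting noise, with a chi-square per degree of freedom from 7.09 to 33.6. Runx1 itself was higher in the libraries labelled Runx1 KO, at 6648, 6720 and 5830 normalised reads against 3031, 2799 and 3497 in WT (ratio 2.06, limma adjusted p 0.00163), so a loss of the transcript does not check the label, and "Runx1 KO" is used below as the name of the label. Values per gene do not show whether an exon was missing.

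Of the 40 genes, 1 passed the threshold, and that was Myc, which was higher in Runx1 KO. The other 39 did not pass, 24 of them with a positive and 15 with a negative estimate, of which 7 turned positive when library totals were used for scaling (Ubtf, Gar1, Ncl, Noc4l, Bysl, Nip7 and Ftsj3). Members called thus made up 2.5%, whereas 21.9% of all genes tested were called (10.6% higher and 11.3% lower; the share of higher calls was 48.4%, and 63.5% with library totals, which shift the median of all genes from -0.0042 to 0.0777), and 22.7% of the 6369 genes with a mean at least that of the least abundant member. The median change of the members was 0.03 on the log2 scale, against -0.0042 for all genes tested. The estimates of the 39 ran from -0.19 for Nhp2 to 0.23 for Polr1b, and their 95% confidence intervals reached at most from a 0.764-fold level (Nolc1) to a 1.46-fold level (Polr1b). All 39 intervals therefore lay within 1.5-fold in either direction, as they did for 50.6% of all genes tested.

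**Figure D1:**
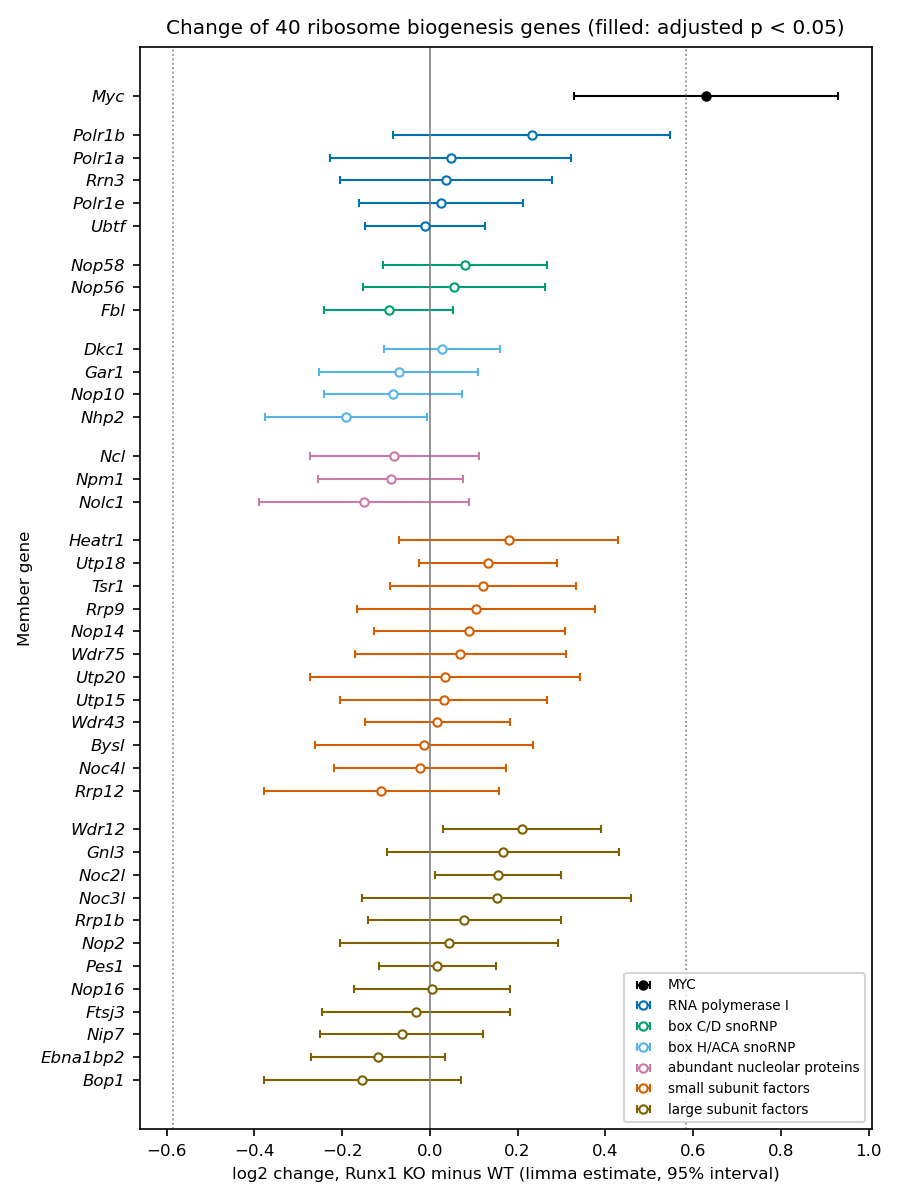
The log2 change (x axis, Runx1 KO minus WT) of the 40 genes (y axis), with its 95% interval from limma, coloured by role; filled points passed the adjusted p threshold, and dotted lines mark 1.5-fold. Myc, at 0.63, is the filled point, and the intervals of the other 39 genes lie between the dotted lines.

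Myc (ENSMUSG00000022346; chromosome 15, 61985391 to 61990374, plus strand, GENCODE M21 on GRCm38, protein coding) had 5517, 6451 and 7402 normalised reads in WT libraries 1 to 3 and 8650, 10911 and 10340 in Runx1 KO libraries 1 to 3. All 3 Runx1 KO libraries lay above all 3 WT libraries. The means were 6457 ± 943 and 9967 ± 1180 (SD, n = 3), a ratio of 1.54 and a log2 change of 0.63 (SE 0.13, 95% interval 0.33 to 0.93), with a limma adjusted p of 0.0159. The call held without any 1 of the WT libraries and without Runx1 KO replicate 1, but not without either of the other Runx1 KO libraries: without replicate 2 the log2 change was 0.56 and the limma adjusted p 0.0654, and without replicate 3 they were 0.60 and 0.0581. In bulk RNA, fewer cells of a type and less RNA per cell cannot be told apart.

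The remaining genes shared a pattern over the libraries that ran across the genotypes. Of the 39, 37 were lowest of the 6 libraries in WT 1 (15 genes) or Runx1 KO 1 (22 genes). WT 1 was the lowest WT library for 37 of them, and Runx1 KO 1 the lowest Runx1 KO library for 36. Relative to each gene's mean over the 6 libraries, the median of the 39 was -0.10, 0.07 and 0.0027 on the log2 scale in WT 1 to 3 and -0.11, 0.08 and 0.07 in Runx1 KO 1 to 3. The 39 genes together took 0.673%, 0.7795% and 0.7596% of the normalised reads of the WT libraries and 0.7201%, 0.7927% and 0.8064% of those of the Runx1 KO libraries. WT 1 and Runx1 KO 1 also had the highest summed level of neutrophil markers within their genotype, 415780 normalised reads against 372829 and 317297 in the other WT libraries, and 222672 against 168716 and 160080 in the other Runx1 KO libraries. The same held for the B-lymphoid markers, with 29260 against 6632 and 10879 in WT and 3319 against 1177 and 1207 in Runx1 KO. The monocyte and macrophage sums (57422 against 46127 and 50168, and 56569 against 44403 and 42603) and the T-lymphoid sums (1783 against 1292 and 1396, and 1371 against 415 and 427) were also highest there. The summed proliferation genes were lowest there, at 167358 against 193829 and 175024 in WT and at 144183 against 163346 and 162212 in Runx1 KO. Single markers did not all follow these sums. In WT 1, Prtn3 (24363 normalised reads against 30625 and 26024) and Cd4 (320 against 461 and 440) were lowest of the WT libraries. Elane was lowest of the Runx1 KO libraries in Runx1 KO 1 (23710 against 25284 and 24872), and Cx3cr1 was highest in WT 3. The part of these cells, or of proliferation, in the level of the 39 genes was not tested.

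**Figure D2:**
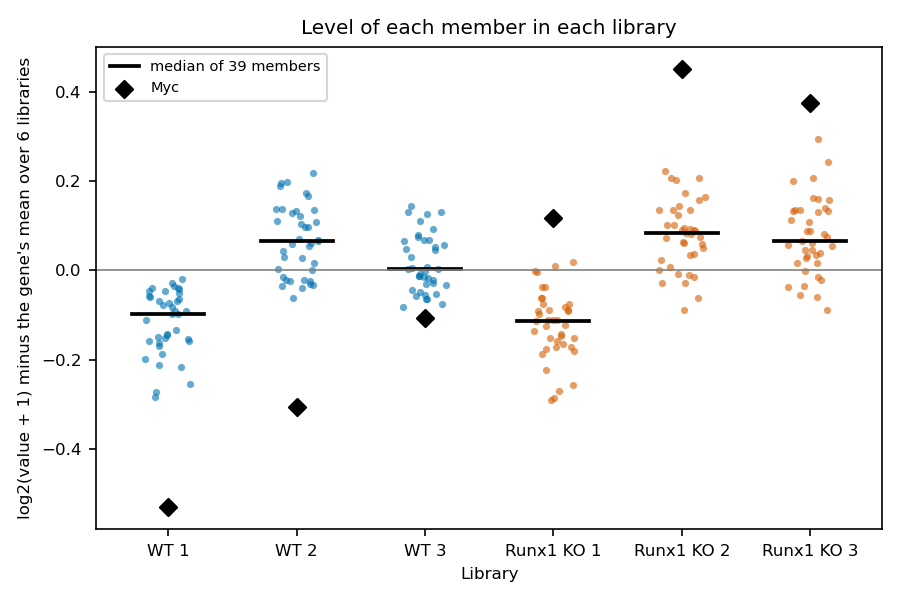
For each library (x axis), the log2(value + 1) of each gene minus its mean over the 6 libraries (y axis); points are the 39 genes, bars their median and diamonds Myc. The medians of WT 1 and Runx1 KO 1 are the lowest, at -0.10 and -0.11, whereas Myc separates the genotypes.

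With both libraries numbered 1 left out, an alternative chosen after the values were seen, 4 of the 40 genes were called higher (Myc, Polr1b, Heatr1 and Gnl3) and 1 lower (Nhp2), where 24.3% of all genes were called. The changes were then 0.30 for Polr1b, 0.24 for Heatr1, 0.22 for Gnl3 and -0.26 for Nhp2, with limma adjusted p values of 0.0241, 0.0334, 0.0496 and 0.0321. Leaving out Runx1 KO 1 alone called Myc, Polr1b and Heatr1 higher, where 3551 of the 15410 genes were called. Leaving out WT 1 alone called Nhp2 lower beside Myc, where 2494 of all genes were called. With the replicate number as a block, Myc and Wdr12 were the members called, where 24.9% of all genes were called.

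None of the 5 RNA polymerase I genes passed the threshold. Polr1b, the second largest subunit of the enzyme (chromosome 2, 129100995 to 129126594, plus strand), had the highest estimate, with 2119, 2561 and 2430 normalised reads in WT and 2274, 2988 and 3144 in Runx1 KO. Runx1 KO 1 lay among the WT values and the other 2 above them. Its log2 change was 0.23 (95% interval -0.08 to 0.55, limma adjusted p 0.25). Ubtf, the HMG-box factor that opens the ribosomal DNA promoter (chromosome 11, 102304560 to 102319742, minus strand), had 7608, 8202 and 7850 in WT and 7455, 7983 and 8046 in Runx1 KO, ranges that overlap almost wholly (log2 change -0.01, interval -0.15 to 0.13). The catalytic subunit Polr1a (0.05), the subunit Polr1e (0.03) and the initiation factor Rrn3 (0.04) had estimates between these.

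The 3 core proteins of the box C/D snoRNP, which carry out ribose methylation, did not pass either. Nop58, a scaffold protein (chromosome 1, 59684971 to 59719044, plus strand), had 5848, 6705 and 6310 normalised reads in WT and 6067, 6925 and 6958 in Runx1 KO, a log2 change of 0.08 (interval -0.11 to 0.27). The other scaffold protein, Nop56, stood at 0.06. Fbl, the methyltransferase fibrillarin (chromosome 7, 28169710 to 28179269, plus strand), had 6072, 6858 and 6444 in WT and 5862, 6183 and 6088 in Runx1 KO, a log2 change of -0.09 (interval -0.24 to 0.05). The groups overlapped for all 3 genes.

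Among the 4 box H/ACA proteins, which carry out pseudouridylation and are also part of telomerase, Nhp2 had the lowest estimate of the 40 genes. Nhp2 (chromosome 11, 51619735 to 51623714, plus strand) had 2601, 3152 and 2959 normalised reads in WT and 2509, 2547 and 2547 in Runx1 KO. The Runx1 KO libraries were nearly equal and lay just under the lowest WT library. The log2 change was -0.19 (SE 0.08, interval -0.38 to -0.0072), with an unadjusted limma p of 0.0437 and an adjusted p of 0.121. Dkc1, the pseudouridine synthase dyskerin (chromosome X, 75095854 to 75109777, plus strand), had 5605, 5825 and 5831 in WT and 5567, 6054 and 5993 in Runx1 KO. At 0.03 (interval -0.10 to 0.16) it had the smallest standard error of the 39, 0.06. Gar1 (-0.07) and Nop10 (-0.08) lay between them.

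The 3 abundant nucleolar proteins all had negative estimates, Ncl turning to 0.0011 with library totals, and none passed. Ncl, the RNA-binding protein nucleolin (chromosome 1, 86344719 to 86359400, minus strand), had 35671, 42031 and 36312 normalised reads in WT and 34104, 36617 and 36820 in Runx1 KO, a log2 change of -0.08 (interval -0.27 to 0.11). Nolc1, which escorts snoRNPs (chromosome 19, 46075863 to 46085530, plus strand), had 7968, 9403 and 8591 in WT and 6794, 8236 and 8416 in Runx1 KO, a log2 change of -0.15 (interval -0.39 to 0.09). Npm1, the histone chaperone nucleophosmin, had 22613 to 26017 normalised reads in WT and 22084 to 22513 in Runx1 KO, so its groups did not overlap although its change of -0.09 was small (limma adjusted p 0.391). Npm1 has processed pseudogenes, and how reads shared with them were counted is not given in the sources used here.

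Of the 12 small subunit factors, 9 had positive estimates and 0 passed. Heatr1, a large protein of the processome subcomplex that joins first (chromosome 13, 12395027 to 12440289, plus strand), had 4030, 4585 and 4453 normalised reads in WT and 4212, 5330 and 5324 in Runx1 KO. Replicates 2 and 3 of Runx1 KO were above every WT library and replicate 1 was not, and the log2 change was 0.18 (interval -0.07 to 0.43, limma adjusted p 0.258). Rrp12, a factor of late maturation and export (chromosome 19, 41862851 to 41896173, minus strand), had the lowest estimate, with 2080, 2452 and 2289 in WT and 1791, 2327 and 2228 in Runx1 KO, a log2 change of -0.11 (interval -0.38 to 0.16). Utp18, a WD-repeat protein of the processome, was the 1 factor of the 12 whose groups did not overlap, at 1579 to 1725 in WT and 1748 to 1910 in Runx1 KO (log2 change 0.13, limma adjusted p 0.193). Heatr1 had a higher estimate than Utp18, whereas other processome proteins had lower ones, with Utp15 at 0.03, Utp20 at 0.03, Wdr43 at 0.02 and Wdr75 at 0.07. Nop14 stood at 0.09 and its partner Noc4l at -0.02, the snoRNP protein Rrp9 at 0.11, and the late factors Bysl and Tsr1 at -0.01 and 0.12.

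Of the 12 large subunit factors, 8 had positive estimates and 0 passed. Wdr12, Bop1 and Pes1 form 1 complex, needed to process the precursor of the large subunit, and their estimates differed. Wdr12 (chromosome 1, 60069785 to 60098645, minus strand) had 2446, 2779 and 2718 normalised reads in WT and 2879, 3281 and 3025 in Runx1 KO, so its groups did not overlap. Its log2 change was 0.21 (SE 0.08, interval 0.03 to 0.39), and its limma adjusted p of 0.0912 was the lowest of the 39. Bop1 (chromosome 15, 76452989 to 76477277, minus strand) had 3348, 4143 and 3997 in WT and 3172, 3546 and 3575 in Runx1 KO, a log2 change of -0.15 (interval -0.38 to 0.07). Pes1 stood at 0.02 (interval -0.12 to 0.15). Whether the changes of the 3 partners differ from each other was not tested.

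Noc2l, a nucleolar protein that travels with the large subunit precursor, was the other large subunit factor without overlap, at 5415, 5898 and 5825 normalised reads in WT and 6071, 6618 and 6412 in Runx1 KO (log2 change 0.16, interval 0.01 to 0.30, limma adjusted p 0.107). Its partner Noc3l had a similar estimate, 0.15, with a wider interval of -0.15 to 0.46. The GTPase nucleostemin, Gnl3, stood at 0.17, Rrp1b at 0.08, the rRNA methyltransferases Nop2 and Ftsj3 at 0.04 and -0.03, Nop16 at 0.0051, Nip7 at -0.06 and Ebna1bp2 at -0.12. Wdr12, Noc2l and Nhp2 were the 3 of the 39 genes with an unadjusted limma p under 0.05, where 37.7% of all genes had one. Including Myc, the groups did not overlap for 6 of the 40 genes, 15% against 43.3% of all genes tested. Myc, Utp18, Wdr12 and Noc2l had all Runx1 KO libraries above all WT libraries, as did 21.4% of all genes, and Nhp2 and Npm1 had them below, as did 21.9%.

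Levels were also compared per kilobase of exon. In WT, Npm1 was the most abundant of the 40 at 8940 ± 712 normalised reads per kilobase, followed by Ncl at 3730 ± 344, Nhp2 at 2530 ± 244, Myc at 2380 ± 347 and Nop10 at 2320 ± 166 (SD, n = 3). The last 3 of these lay within each other's spread. Polr1e at 245 ± 2.28 and Wdr12 at 221 ± 14.8 were the least abundant. In Runx1 KO, Myc stood at 3670 ± 433, above Nhp2 at 2210 ± 18.9 and beside Ncl at 3520 ± 149. The lengths are the union of all annotated exons, which lowers the value of genes with many listed isoforms.

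Because MYC acts through the E-box, the promoters of the members were searched for it. RefSeq windows of 300 bases on GRCm38.p6, from 250 before to 50 after a transcription start, were at hand for 35 of the 40 genes (44 windows); Myc, Fbl, Npm1, Rrp12 and Bop1 had none. The E-box CACGTG, which reads the same on both strands, occurred in 7 of the 44 windows (15.9%) and in 7.15% of all 32851 windows. The genes holding it were Rrn3, Utp18, Utp20, Wdr43, Tsr1, Pes1 and Nop2, whose changes ran from 0.02 for Pes1 to 0.13 for Utp18, and none passed the threshold. The core TGTGGT of RUNX sites, searched on both strands (reverse ACCACA, no overlap with CACGTG), occurred in 4 windows (9.09%), those of Nop56, Heatr1, Bysl and Pes1, and in 16.8% of all windows. A match is a description of the letters and does not show binding. Shown are the stretches before the start, free of annotated exons, of the 3 genes with an E-box there, and of Nop56, which has 2 RUNX cores. Capitals mark the E-boxes in the first 3 sequences and the RUNX cores in the last.
Rrn3 (chr16:13780449-13780698, plus strand; E-boxes begin 215 and 48 bases before the start): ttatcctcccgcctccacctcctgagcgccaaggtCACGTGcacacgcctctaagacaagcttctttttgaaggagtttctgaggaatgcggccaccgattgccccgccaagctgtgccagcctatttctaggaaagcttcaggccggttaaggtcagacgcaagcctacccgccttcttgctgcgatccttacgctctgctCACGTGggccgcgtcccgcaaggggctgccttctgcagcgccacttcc
Utp18 (chr11:93885767-93885851, minus strand; E-box begins 20 bases before the start): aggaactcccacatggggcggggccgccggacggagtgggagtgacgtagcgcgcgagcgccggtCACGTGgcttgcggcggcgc
Nop2 (chr6:125131633-125131882, plus strand; E-box begins 60 bases before the start): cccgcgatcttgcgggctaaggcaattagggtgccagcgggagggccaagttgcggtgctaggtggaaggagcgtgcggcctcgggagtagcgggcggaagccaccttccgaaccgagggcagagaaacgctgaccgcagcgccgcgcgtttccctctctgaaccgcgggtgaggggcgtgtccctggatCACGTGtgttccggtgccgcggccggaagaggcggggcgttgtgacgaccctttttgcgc
Nop56 (chr2:130274162-130274411, plus strand; RUNX cores begin 88 and 12 bases before the start): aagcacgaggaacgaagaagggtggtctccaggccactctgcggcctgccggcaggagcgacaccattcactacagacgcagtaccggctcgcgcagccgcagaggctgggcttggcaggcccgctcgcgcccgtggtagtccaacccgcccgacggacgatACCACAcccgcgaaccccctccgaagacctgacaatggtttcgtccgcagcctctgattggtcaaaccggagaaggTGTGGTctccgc

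Rrn3, with its 2 E-boxes, had 2010, 2302 and 2067 normalised reads in WT and 1897, 2267 and 2404 in Runx1 KO. Nop2 had 3272, 3922 and 3621 in WT and 3230, 3921 and 4025 in Runx1 KO. Nop56 had 5485, 5837 and 6668 in WT and 5753, 6453 and 6451 in Runx1 KO. All 3 genes overlapped between the groups, unlike Myc. Utp18, the other gene shown, did not overlap, with 1579 to 1725 in WT and 1748 to 1910 in Runx1 KO.

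A feature the choice of genes did not use is that several members host snoRNA genes. In GENCODE M21, 7 of the 40 (17.5%) hold a snoRNA gene on their own strand, against 1.18% of 21951 protein-coding genes. These were Nop56 with 5, Nop58 with 4, Ncl, Wdr43 and Gnl3 with 3 each, Tsr1 with 2 and Dkc1 with 1. Their own changes ran from -0.08 for Ncl to 0.17 for Gnl3. The snoRNAs themselves were not analysed here. Exons of 16 of the 40 genes share bases with a gene on the opposite strand, most of all Tsr1 with 1240 bases and Noc2l with 598. Whether counting used the strand is not given in the sources used here, so reads within the shared bases cannot be told apart from those of the partner gene. The shared stretch was short for others, such as Nop56 with 5 bases. On the same strand, only Ncl shares exon bases with another gene, 83 of them.

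Genes of the MYC family and the MAX network were called in both directions, at a share near that of all genes. Of 11 such genes other than Myc, 2 were called higher and 1 lower (27.3%, against 21.9% of all genes tested). Their median change was -0.04. Mycn, a close relative of Myc known in stem and progenitor cells, had 122, 136 and 205 normalised reads in WT and 333, 473 and 332 in Runx1 KO, a ratio of 2.46 and a log2 change of 1.31 (SE 0.23, limma adjusted p 0.0106). Mga, a large MAX partner that represses transcription, rose from 3648, 3354 and 3483 in WT to 4208, 5496 and 5481 in Runx1 KO, a log2 change of 0.52 (limma adjusted p 0.0178). The groups of Mycn and Mga did not overlap. Over the 11 genes this held for 7 (63.6%), against 43.3% of all genes tested. Mxd3, a MAX partner that opposes MYC, fell from 316, 315 and 288 in WT to 189, 142 and 137 in Runx1 KO, all below WT, a log2 change of -0.98 (limma adjusted p 0.00695). Mycn and Mxd3 were called whichever 1 library was left out, and Mga was not without WT replicate 2 or 3 or without Runx1 KO replicate 2 or 3. The counts rose to 4 higher (with Mxd4 and Mlxip) and 2 lower (with Mxd1) without WT replicate 1, to 4 higher and 3 lower (with Mxd1 and Mycl) without both libraries numbered 1, and to 4 higher and 1 lower with library totals. Without WT replicate 3 they were 1 higher and 2 lower (Mxd1 added), without Runx1 KO replicate 1 they were 2 and 2 (Mycl added), and without WT replicate 2 or Runx1 KO replicate 2 or 3 they were 1 and 1. The genes called in all also moved, from 1349 without Runx1 KO replicate 2 to 3755 with library totals, against 3370. Mxd1 and Mycl, named after their values were seen, were lower in every Runx1 KO library than in every WT library, but did not pass with all libraries (limma adjusted p 0.0565 and 0.0619). Mxd1 passed without WT replicate 1 or 3, and Mycl without Runx1 KO replicate 1. Mxd1 had 8091, 2844 and 2288 normalised reads in WT and 1807, 1213 and 1048 in Runx1 KO, the highest value being that of WT 1. Max itself stood at -0.04.

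**Figure D3:**
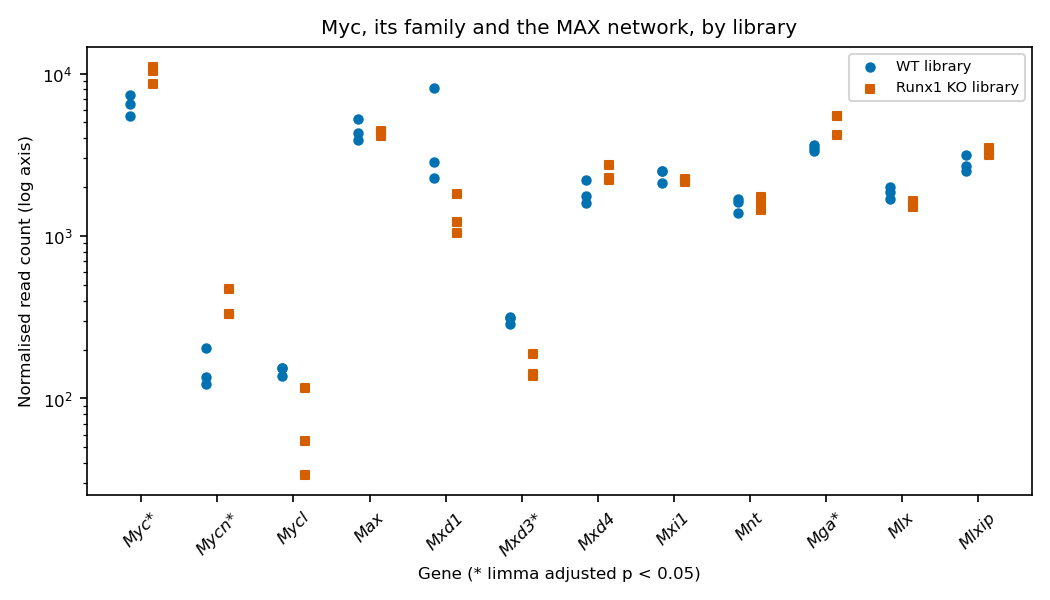
Normalised read counts (y axis, log scale) of Myc and 11 genes of its family and the MAX network (x axis); each circle is a WT library and each square a Runx1 KO library, and stars mark a limma adjusted p under 0.05. The groups of Myc, Mycn, Mga and Mxd3 are separate, and so are those of Mxd1, Mycl, Mxd4 and Mlx, which have no star. WT 1 stands apart for Mxd1.

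The other genes of ribosome biogenesis were mostly not called either. Of 118 further genes (RNA polymerase I, snoRNP assembly, small and large subunit factors and the RNA exosome), 116 were tested. Of these, 3 were called higher and 0 lower (2.59%, against 21.9% of all genes tested), and the median change was 0.04. An unadjusted limma p under 0.05 was found for 17 of the 116, where 37.7% of all genes had one. Nop53, a large subunit factor that brings in the exosome, rose from 6076, 5784 and 5928 normalised reads in WT to 8058, 7168 and 7315 in Runx1 KO (log2 change 0.34, SE 0.06, limma adjusted p 0.0116). Efl1, the GTPase that helps release EIF6 from the finished large subunit, rose from 923, 1013 and 976 in WT to 1152, 1163 and 1207 in Runx1 KO (log2 change 0.28, limma adjusted p 0.0286). Twistnb, a subunit of RNA polymerase I, rose from 1769, 1875 and 1786 in WT to 2046, 2189 and 2142 in Runx1 KO, a log2 change of 0.23 (limma adjusted p 0.0321). The groups of these 3 genes did not overlap, as for 25 of the 116 (21.6%), against 43.3% of all genes tested. With TMM scaling, or a filter on mean CPM, 6 of the 116 genes were called higher, and with library totals 11. Without Runx1 KO replicate 1 there were 10; without any other 1 library there were 1 or 2, and 1 lower (Tbl3) without WT replicate 1. Leaving out both libraries numbered 1 gave 9 higher and 1 lower, Efl1 not among them. Over all 15410 genes, 1631 were called higher with none of these changes, 1763 with TMM and 2383 with library totals. Without Runx1 KO replicate 1 there were 1627, without any other 1 library 627 to 1243, and without both libraries numbered 1 there were 1720. With the CPM filter, 1593 of 13440 genes were called higher. Nop53 was called whichever 1 library was left out, whereas Twistnb was called only without Runx1 KO replicate 1, and Efl1 only without that library or WT replicate 2.

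Proliferation genes, which often go with ribosome production, were on balance lower. Of 17 such genes, 7 were called lower (41.2%, against 11.3% of all genes tested) and 0 higher, with a median change of -0.25. The 7, named after their values were seen, were the ribonucleotide reductase subunit Rrm2 (-0.60), the mitotic kinases Plk1 (-0.47) and Aurkb (-0.29), the cyclins Ccna2 (-0.36) and Ccnb1 (-0.34), Cdk1 (-0.30) and the replication helicase subunit Mcm5 (-0.25). Under library totals 3 of the 17 were called lower. With the replicate block, 11 were called lower. Without 1 library each, between 1 (without Runx1 KO replicate 2) and 9 (without WT replicate 1) were called lower. The count was 3 without WT replicate 2, WT replicate 3, Runx1 KO replicate 1 or Runx1 KO replicate 3. Over all 15410 genes, 1739 were called lower with all libraries, 1372 with library totals and 2187 with the replicate block. Without WT replicates 1 to 3 these were 1251, 1169 and 1150, and without Runx1 KO replicates 1 to 3 they were 1924, 722 and 890. The medians of the 2 ribosome biogenesis sets were 0.03 and 0.04, and a difference between the lists was not tested.

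**Figure D4:**
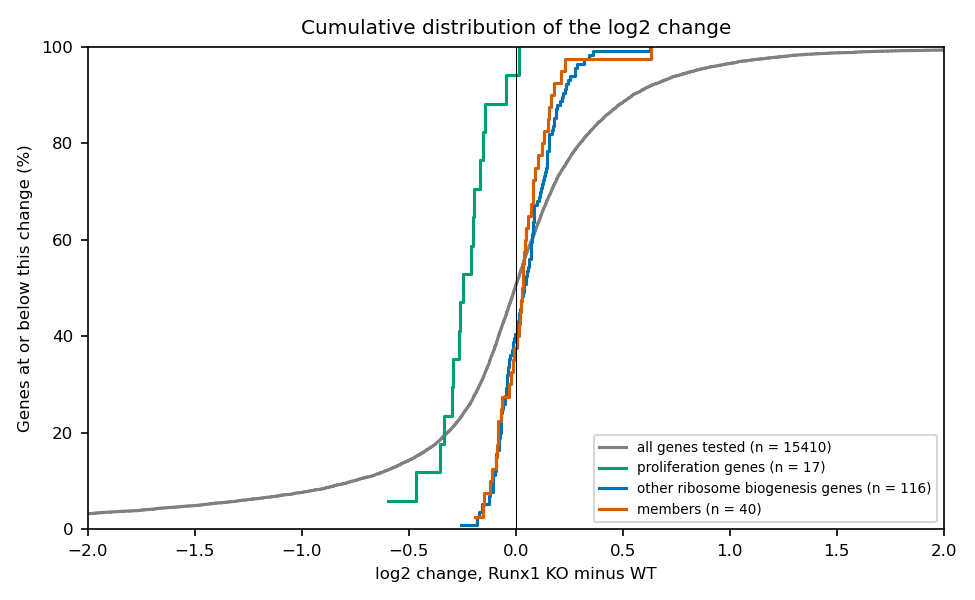
Percentage of genes (y axis) at or below a given log2 change (x axis, Runx1 KO minus WT, shown from -2 to 2) for the 40 members, 116 other ribosome biogenesis genes, 17 proliferation genes and all 15410 genes tested. Members and the other ribosome biogenesis genes rise steeply around 0, with medians of 0.03 and 0.04, and proliferation genes lie to the left, with a median of -0.25.

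Marker genes of several cell types differed between the labels. Beside the counts below, 10.6% of all genes tested were called higher and 11.3% lower. Kit was measured at 8301 ± 280 normalised reads in WT and 12650 ± 1090 in Runx1 KO (SD, n = 3), and 4 of 5 progenitor markers were called higher, with sums of 17252 to 19424 in WT and 25136 to 28486 in Runx1 KO. Of 12 neutrophil markers 8 were called lower (sums 317297 to 415780 and 160080 to 222672), of 7 mast cell and basophil markers 6 (6578 to 9365 and 2191 to 3770), and of 9 B-lymphoid markers 6 (6632 to 29260 and 1177 to 3319). Of 9 erythroid markers 4 were called lower (24174 to 36998 and 16947 to 25355), and of 7 monocyte and macrophage markers 3 lower and 1 higher (46127 to 57422 and 42603 to 56569). Of 8 T-lymphoid markers 0 were called (1292 to 1783 and 415 to 1371), and of 7 megakaryocyte markers 4 were higher (3655 to 4565 and 4726 to 7105). The markers of a list did not all move the same way. The erythroid genes Klf1 (log2 change 0.74) and Epor (0.68) and the mast cell gene Cpa3 (0.40) had positive estimates. The megakaryocyte gene Pf4 had a negative one (-0.89), and none of these passed. No marker was at 0 in any library. Several of these lists moved beside the rise of Myc. The sums of the erythroid, the monocyte and macrophage and the T-lymphoid markers overlapped between the labels. The part of any list in the rise of Myc was not tested.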

How the data were processed

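Poly-A RNA of c-Kit-selected mouse bone marrow was sequenced in 6 libraries, 3 per genotype. HISAT2 and HTSeq 0.9.1, with the builds mm10 and GRCm38, are named in the submitters' processing notes, without role or settings. The deposited values are a signal that the authors scaled by a factor per library; the unit was worked out from the values. Values were tested with limma 3.58.1 (R 4.3.3; lmFit and eBayes with a mean trend, genotype as the only term, two-sided) on log2(value + 1), for genes passing filterByExpr of edgeR 4.0.16 (minimum count 10, minimum total 15). With 3 libraries against 3 a permutation test of 1 gene cannot go below p = 0.1, so none is given. The members and lists were chosen with earlier results of these data known. Per-library values are given for Myc, for members past the threshold and for the highest and lowest estimate of each role group of 3 or more; from the other ribosome biogenesis lists, for the 3 highest and 3 lowest past the threshold, and for every MYC family gene past it. Npm1, Utp18, Noc2l, Rrn3, Nop2 and Nop56 were added after their values were seen. Symbols came from a table of Ensembl identifiers (20077 of 20097 matched), positions and exon lengths from GENCODE M21 (20090 matched), on GRCm38. Alternatives were other scalings, pseudocounts and filters, a replicate block and leaving libraries out.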

Additional observations from a re-analysis of the deposited data

How the results depend on the processing

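The change of Myc stayed positive in every alternative run and above the threshold in all but those without Runx1 KO replicate 2 or 3; with all libraries kept, the other scalings, pseudocounts, filters and the replicate block left Myc called. Members called higher numbered 1, against 3 with library totals (Wdr12 and Noc2l added, limma adjusted p 0.0412 and 0.0402), 2 with the replicate block (Wdr12 added, 0.042) and 4 with both libraries numbered 1 left out; members called lower numbered 0, against 1 in that last setting. The genes called in all numbered 3755 with library totals, 3843 with the replicate block and 3752 with both libraries numbered 1 left out. Without 1 library each, from 0 to 3 members were called higher, from 0 to 1 lower, and from 1349 to 3551 genes in all, against 3370. The median change of the members ran from -0.0121 to 0.1025 in those fits and was 0.1125 with library totals, which raise the median of all genes from -0.0042 to 0.0777 and the share of higher calls from 48.4% to 63.5%. Why the settings differ was not tested.

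Signs turned for small changes that passed in no setting. With library totals these were Ubtf 0.0714, Gar1 0.0116, Ncl 0.0011, Noc4l 0.0599, Bysl 0.0684, Nip7 0.0181, Ftsj3 0.0507; with TMM Ubtf 0.0055, Bysl 0.0025; with both libraries numbered 1 left out Bysl 0.0506, Nop16 -0.028. With 1 library left out the ranges that crossed 0 were Polr1a -0.0235 to 0.19, Polr1e -0.0159 to 0.0931, Rrn3 -0.0339 to 0.14, Ubtf -0.0365 to 0.0239, Nop56 -0.0067 to 0.13, Utp15 -0.0388 to 0.12, Utp20 -0.0606 to 0.19, Wdr43 -0.019 to 0.077, Rrp12 -0.18 to 0.0052, Noc4l -0.0737 to 0.0436, Bysl -0.0825 to 0.0946, Pes1 -0.0047 to 0.0539, Nop2 -0.0235 to 0.14, Nop16 -0.0603 to 0.0405, Ftsj3 -0.0885 to 0.0466.

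By the rule used here the replicate numbers were not taken to pair the libraries. Same-numbered libraries had deviations correlated at 0.287, 0.129 and -0.01, and 3 of the 6 libraries correlated best with their own number. The 0.287 of the libraries numbered 1 was the highest value of any WT and Runx1 KO pair. These libraries also shared the low level of the 39 members, 37 of which were lowest in WT 1 or Runx1 KO 1. Whether the libraries are paired is thus not settled. The replicate block gave 3843 genes against 3370, and left the estimates as they were. Of the 116 other ribosome biogenesis genes it called 8 higher (Mdn1 among them, limma adjusted p 0.0292) and 1 lower (Tbl3), against 3 and 0 without the block, and of the proliferation genes it called 11 lower, against 7. In the MAX network it called 3 higher (Mxd4 added) and 3 lower (Mxd1 and Mycl added, limma adjusted p 0.00542 and 0.0433), against 2 and 1. The planned edgeR and DESeq2 count tests were not run, since reads could not be taken as recovered for all 6 libraries. Every member had at least 886 normalised reads in every library. Members called numbered 1 of 40 at n = 3, and a change smaller than the intervals given cannot be told from 0 here.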

Other observations

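Among other genes of the pathway, Mdn1 and Urb1 showed a pattern that split the Runx1 KO libraries. It was not particular to them, since Runx1 KO 1 was the lowest Runx1 KO library for 36 of the 39 members. Mdn1, the large ATPase that strips factors from the large subunit precursor, had 3797, 4141 and 3976 normalised reads in WT and 4256, 7602 and 7130 in Runx1 KO, so that replicate 1 of Runx1 KO stood just above the WT libraries and the others well above them (limma adjusted p 0.0687; called higher with library totals). Urb1, a large subunit factor, had 1574, 1642 and 1780 in WT and 1646, 2416 and 2460 in Runx1 KO (limma adjusted p 0.136). Both genes were named after their values were seen. Both were among the 10 of the 116 other ribosome biogenesis genes called higher with Runx1 KO replicate 1 left out.

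The RNA exosome, which trims the ends of precursor RNAs, had 13 genes tested, of which 0 were called by limma, against 21.9% of all genes tested. An unadjusted limma p under 0.05 was found for 1 of the 13, where 37.7% of all genes had one. The 13 had a median change of 0.04 on the log2 scale, with changes from -0.18 for Mphosph6 to 0.12 for Exosc2. All 13 intervals lay within 1.5-fold in either direction, as did those of 50.6% of all genes tested.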
